A study of Sus scrofa with 8 samples.

Results

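Macrophage and monocyte genes were described in the right ventricle of pigs (Sus scrofa) that carry a PKP2 heterozygous knockout, set against wild-type pigs. The 34 genes were the rows of the deposited expression table that carry the names of a list of macrophage and myeloid markers, out of 30550 genes in all. For 33 of them the gene name was the listed symbol. CYBB stands in the table as GP91-PHOX and was found through a RefSeq synonym. The labels give 4 heterozygous knockout libraries (PKP2_het) and 4 wild-type libraries (WT). PKP2 encodes plakophilin 2, a desmosomal protein that links heart muscle cells, and the series title names the pigs as a model of arrhythmogenic cardiomyopathy, a heart muscle disease that is usually inherited. Age, sex, litter and ancestry were not among the labels used here, and no label states that each library came from a different animal, so the p-values reflect only how far these libraries spread, which may be technical. The cell type label reads cardiomyocytes, although the protocol tells of ventricular tissue as a whole.

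Macrophages are phagocytes that live in the heart between muscle cells and vessels, where they clear dead cells and debris. Some are resident cells that renew themselves in the tissue, and others come from blood monocytes drawn in through chemokine receptors. Their survival depends on the receptor CSF1R and their identity on the transcription factor SPI1 (PU.1), and mature resident cells carry scavenger receptors such as CD163, MRC1 and LYVE1 and make the complement protein C1q. The members are described below by these roles: lineage regulators, scavenger and uptake receptors, C1q chains, adaptors and signalling proteins, pattern recognition receptors, recruitment and adhesion molecules, and effector proteins.

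The values are FPKM as deposited, fragments scaled to gene length and to 1 factor per library. They correspond to 25188263 to 31313628 fragments assigned to genes in PKP2_het libraries and 23637697 to 27872031 in WT libraries. The factor was not set by these totals alone. In a gene of 1000 bases, 1 fragment gave 0.0419 FPKM in PKP2_het replicate 3, with 31313628 fragments assigned. It gave 0.0309 FPKM in WT replicate 3, with 27645332 fragments assigned. PKP2 itself averaged 39.2 ± 9.99 FPKM in PKP2_het, against 62.2 ± 8.17 in WT (SD, n = 4 each), and the groups did not overlap, but PKP2 was not called (limma adjusted p 0.164). PKP2_het replicate 3 stood apart from the other 7 libraries, and mitochondrial genes took 52.1% of its fragments. It was the lowest library for 36.3% of all tested genes and the highest for 23.5%. Summed cardiomyocyte markers lay between 24549 and 33878 FPKM in PKP2_het and between 25694 and 28988 FPKM in WT. Endothelial markers summed to 210.6 to 414.1 FPKM in PKP2_het and 251.7 to 486.2 FPKM in WT, so the libraries hold RNA of other cells than cardiomyocytes.

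Macrophage transcripts were present at low levels in both groups. The 34 members together summed to 86.4, 132.8, 106.2 and 71.9 FPKM in PKP2_het replicates 1 to 4, against 121.8, 101.5, 118.8 and 115.3 FPKM in WT replicates 1 to 4. They took 0.0156 to 0.0342% of all fragments in PKP2_het and 0.0245 to 0.0293% in WT. PKP2_het thus held both the highest and the lowest sum, and the groups overlapped. SPI1 was higher in every PKP2_het library than in any WT library, so leaving it out lowers the PKP2_het sums more. Without SPI1 the sums were 67.2, 115.6, 87.8 and 54.3 FPKM in PKP2_het replicates 1 to 4. They were 108.9, 88.1, 104.5 and 107.1 FPKM in WT replicates 1 to 4. The overlap then came through PKP2_het replicate 2, with PKP2_het replicate 3 at 87.8 FPKM only just under WT replicate 2 at 88.1 FPKM. In bulk tissue, fewer cells of a type and less RNA per cell cannot be told apart.

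**Figure D1:**
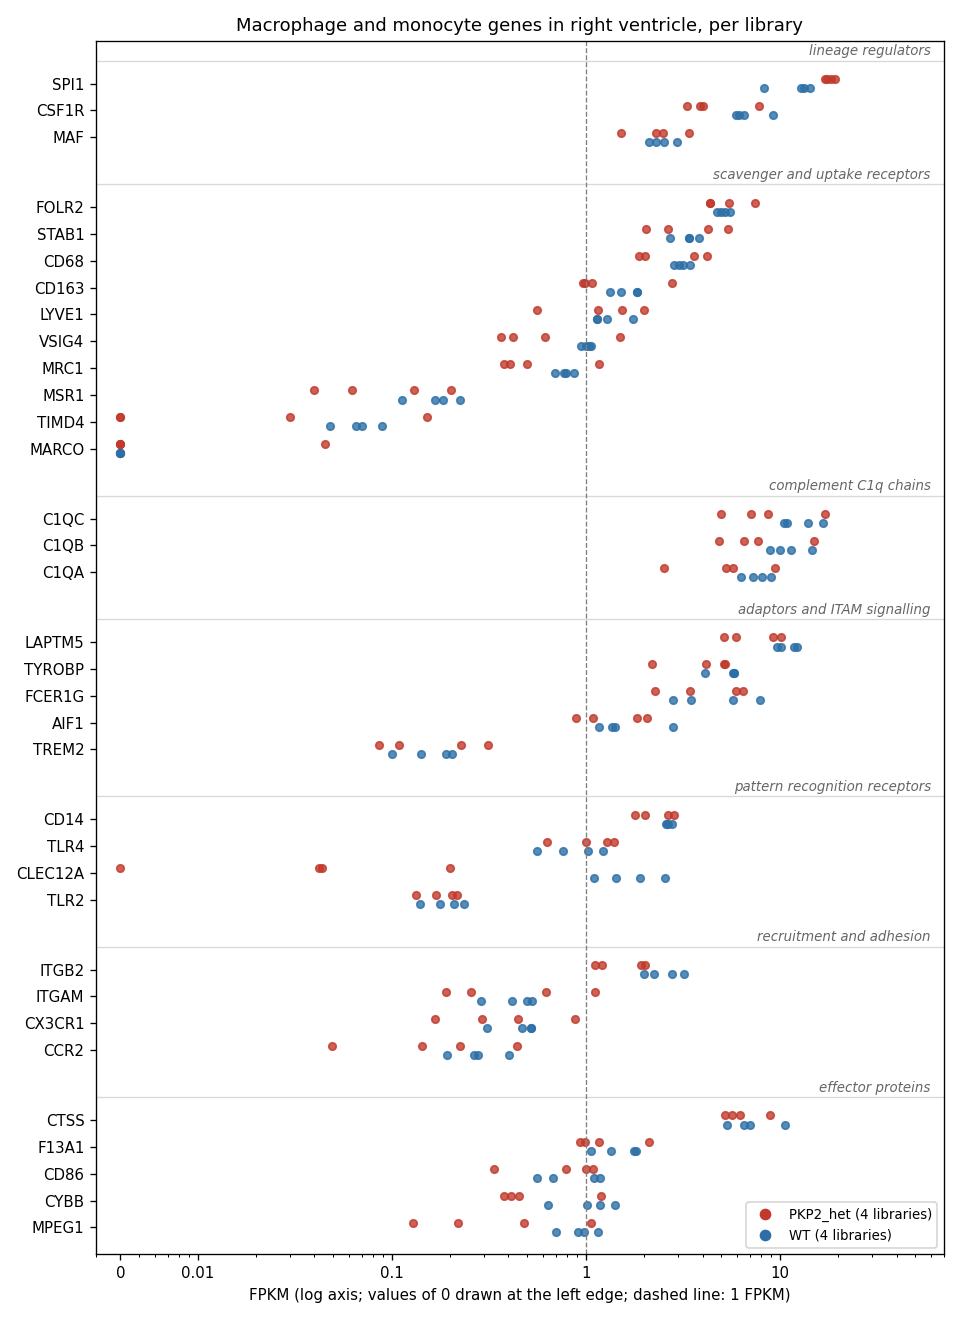
FPKM on a log axis of the 34 members in 4 PKP2_het libraries (red) and 4 WT libraries (blue), ordered by role. CLEC12A and SPI1 are the only members with at least 1 FPKM in 4 or more libraries whose groups do not overlap. Among all tested genes, 4.33% were lower and 4.86% higher in PKP2_het without overlap.

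Of the 34 members, 23 reached 1 FPKM or more in 4 or more libraries and were tested among 10757 genes with limma on log2(FPKM + 1), with p-values adjusted over all 10757 genes by the Benjamini-Hochberg method and called under 0.05. CLEC12A was the 1 member called, and it fell; 0 members were called higher. Among all tested genes, 0.707% were called lower and 1.15% higher. The other 22 tested members had adjusted p-values of 0.146 or more. At an unadjusted p under 0.05 stood 5 of the 23 members, CLEC12A, SPI1, ITGB2, LAPTM5 and CSF1R, while 12.8% of all tested genes did. A fit on the recovered fragments with voom also called CLEC12A and no other member, and 1.78% of all tested genes. The log2 fold change was negative for 19 of the 23 tested members and for 54.3% of all tested genes, with a median of -0.15 over these members and -0.02 over all tested genes. The 4 with a positive value were SPI1, TLR4, FOLR2 and STAB1.

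**Figure D2:**
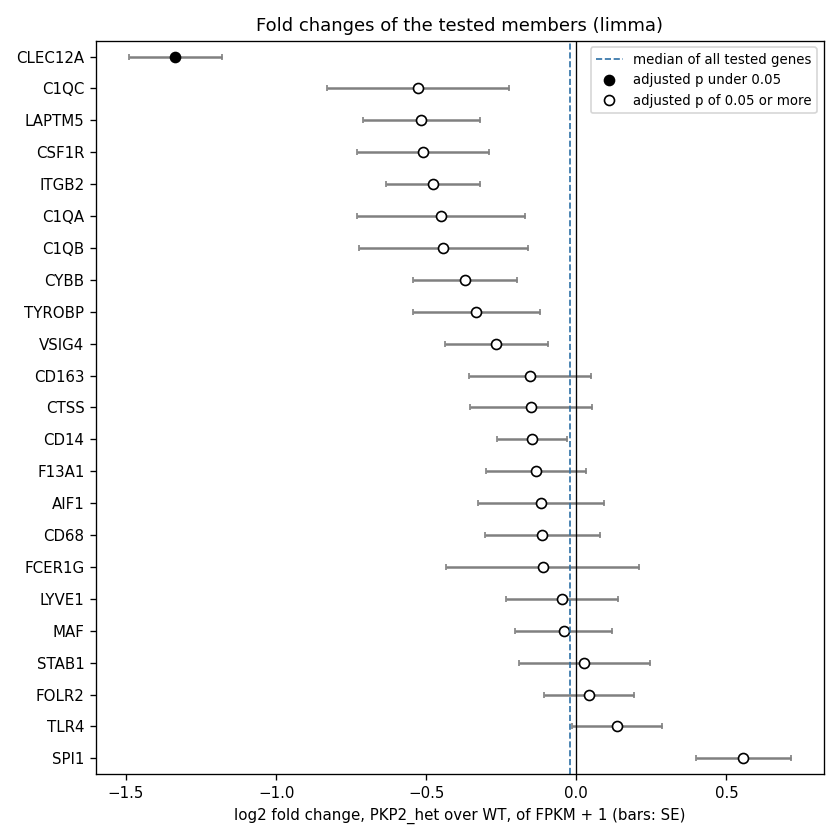
log2 fold changes of FPKM + 1, PKP2_het over WT, of the 23 tested members with their standard errors; filled points have an adjusted p under 0.05 and the dashed line is the median of all tested genes. CLEC12A at -1.34 is the only filled point, and SPI1 at 0.56 lies farthest to the right.

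The pattern recognition receptors hold the member that fell. CLEC12A is a C-type lectin receptor of myeloid cells that, in human and mouse, dampens their activation. Its level was 0.0421, 0, 0.199 and 0.0437 FPKM in PKP2_het replicates 1 to 4, against 2.56, 1.91, 1.10 and 1.43 FPKM in WT replicates 1 to 4. All 4 PKP2_het libraries lay far below the lowest WT library. The means were 0.0713 ± 0.0877 FPKM in PKP2_het, against 1.75 ± 0.634 in WT (SD, n = 4 each). On the log2(FPKM + 1) scale the fold change was -1.34 (SE 0.15), and the limma adjusted p was 0.00227. The levels rest on 1, 0, 4 and 1 fragments in PKP2_het, 6 in all, and on 47, 49, 30 and 36 fragments in WT, 162 in all. The 0 in PKP2_het replicate 2 allows up to 0.121 FPKM, at 3 fragments. Scaled by the deposited factor of each library, PKP2_het held 3.90% of the WT fragments. The exact 95% interval of 1.41 to 8.68% covers counting error only. CLEC12A passed the expression filter through its WT libraries alone. With no filter it was also called, and its limma adjusted p was at most 0.0267 over all 20 settings tried. These settings reuse the same libraries and are not independent. The fits that left out 1 library kept the genes that passed the filter with all libraries. Neutrophils and dendritic cells carry CLEC12A as well as monocytes. Neutrophil markers were low: 0 of the 9 in the table passed the filter, MPO and MMP8 were at 0 in every library, and the sum was 0.350 to 0.796 FPKM in PKP2_het and 0.854 to 3.07 FPKM in WT, without overlap. CSF3R, the neutrophil growth factor receptor, had 0.0929, 0.188, 0.171 and 0.246 FPKM in PKP2_het and 1.495, 1.08, 0.180 and 0.282 FPKM in WT, which overlapped. The part of neutrophils in the CLEC12A difference was not tested.

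CLEC12A (gene 100520135) lies on chromosome 5 of Sscrofa11.1, at chr5:61923057-61936843 on the plus strand, in a stretch of lectin receptor genes. Within 250 kb on either side the annotation holds 20 genes including CLEC12A, of which 12 averaged at least 0.1 FPKM over the 8 libraries. CLEC12A and 3 of the other 11 were lower in PKP2_het with groups that did not overlap, 0 were higher without overlap, and 8 overlapped. Among all genes of at least 0.1 mean FPKM, 4.35% were lower without overlap, as were 4.33% of the tested genes. The window was looked at because CLEC12A was called, so these counts are a description. CLEC12B, a related inhibitory lectin gene that ends 7.73 kb before CLEC12A, had 0, 0.164, 0.0338 and 0.119 FPKM in PKP2_het against 0.740, 0.582, 0.325 and 0.512 FPKM in WT. LOC100520308, annotated as a CLEC12 family member B gene and starting 5.62 kb after CLEC12A, had 0.0888, 0.0182, 0.0075 and 0 FPKM in PKP2_het against 0.615, 0.223, 0.238 and 0.604 FPKM in WT. Both were thus near 0 in all PKP2_het libraries and low but higher in all WT libraries, on 11 fragments in PKP2_het against 74 in WT for CLEC12B and on 18 in PKP2_het against 257 in WT for LOC100520308.

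Both genes lay below the expression filter. With no filter, the limma adjusted p was 0.0398 for CLEC12B and 0.106 for LOC100520308. The last of the 4, CD69, an early activation receptor of lymphocytes, had 3 fragments in PKP2_het and 19 in WT, with an adjusted p of 0.299 with no filter. Other lectin genes of the stretch overlapped between the groups: CLEC1A averaged 4.80 ± 2.23 FPKM in PKP2_het and 5.94 ± 2.83 FPKM in WT, CLEC2B 2.91 ± 0.882 in PKP2_het and 3.11 ± 1.77 in WT, and CLEC9A 0.264 ± 0.318 in PKP2_het and 0.244 ± 0.106 in WT (SD, n = 4 each). How fragments that match several of these related genes were assigned is not given in the sources used here. PKP2 is on the same chromosome, 20.4 Mb away. The labels name neither litter nor ancestry, so the knockout and differences in genetic background cannot be told apart at this place.

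**Figure D3:**
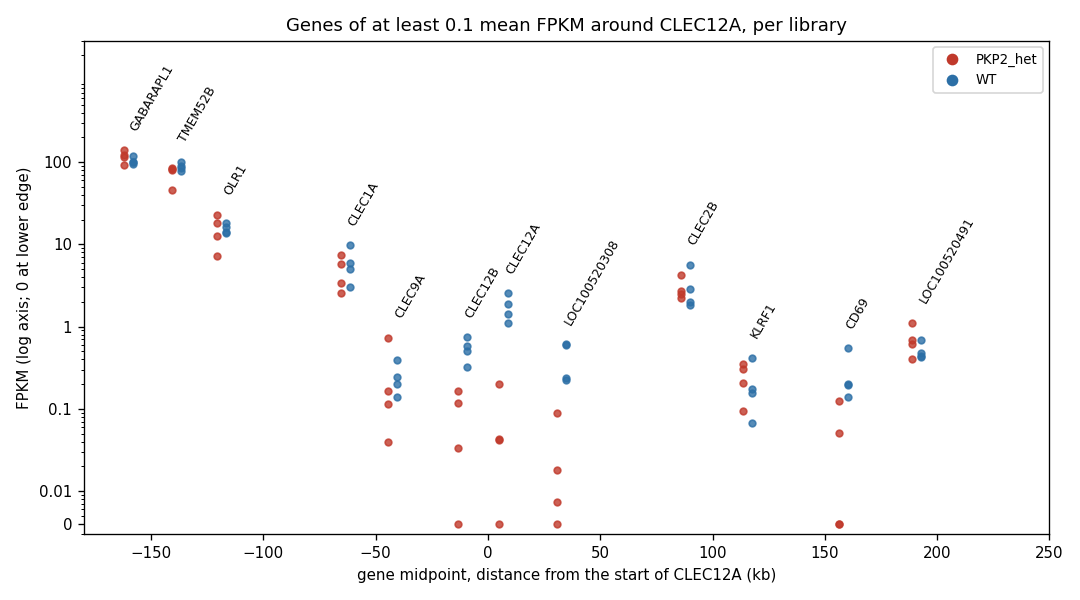
FPKM on a log axis of the 12 genes of at least 0.1 mean FPKM within 250 kb of CLEC12A, by distance of the gene midpoint from the CLEC12A start, in 4 PKP2_het (red) and 4 WT (blue) libraries. CLEC12B, CLEC12A, LOC100520308 and CD69 show red points below all blue points; the other 8 genes overlap.

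The other pattern receptors did not pass the test. CD14, the co-receptor for bacterial lipopolysaccharide, had 1.80, 2.85, 2.67 and 2.01 FPKM in PKP2_het and 2.63, 2.59, 2.77 and 2.66 FPKM in WT, with an adjusted p of 0.643. Its WT libraries lay within a narrow band that the PKP2_het libraries straddled. TLR4, which signals on lipopolysaccharide, averaged 1.08 ± 0.343 FPKM in PKP2_het, against 0.891 ± 0.292 in WT (SD, n = 4 each; adjusted p 0.734). TLR2, a receptor for bacterial lipoproteins, was below the filter with 100 fragments in PKP2_het and 109 in WT.

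Among the 3 lineage regulators, SPI1 and CSF1R stood on opposite sides. SPI1 encodes PU.1, the transcription factor that sets the myeloid lineage. Its level was 19.1, 17.2, 18.4 and 17.6 FPKM in PKP2_het and 12.9, 13.4, 14.3 and 8.27 FPKM in WT. Every PKP2_het library lay above every WT library, as for 4.86% of all tested genes, and WT replicate 4 was the lowest. The means were 18.1 ± 0.869 FPKM in PKP2_het, against 12.2 ± 2.68 in WT (SD, n = 4 each), with a log2 fold change of 0.56 (SE 0.16) and an adjusted p of 0.146 by limma. Its adjusted p lay between 0.0768 and 0.733 over 19 alternatives, so it was called in none of them. SPI1 (gene 414912) lies at chr2:15227850-15245679 on the plus strand. MYBPC3, a heart muscle filament gene, starts 2 kb downstream on the same strand and averaged 966 ± 112 FPKM in PKP2_het, against 1073 ± 106 in WT (SD, n = 4 each; adjusted p 0.700).

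CSF1R is the receptor for the macrophage growth factors CSF1 and IL34. It had 3.33, 7.77, 4.02 and 3.90 FPKM in PKP2_het and 6.51, 5.98, 6.18 and 9.21 FPKM in WT. PKP2_het replicates 1, 3 and 4 lay below all WT libraries, and replicate 2 lay above all of them but WT replicate 4. The CSF1R log2 fold change was -0.51 (SE 0.22), with an adjusted p of 0.370. When 1 library was left out in turn, the fold change on this scale lay between -0.73 without PKP2_het replicate 2 (adjusted p 0.0740) and -0.39 without WT replicate 4 (adjusted p 0.687). The ratio of SPI1 to CSF1R within a library was 5.74, 2.21, 4.59 and 4.52 in PKP2_het and 1.98, 2.23, 2.31 and 0.898 in WT, which overlapped through PKP2_het replicate 2. This ratio restates the opposite signs of SPI1 and CSF1R, neither of which was called. MAF, a transcription factor of resident macrophages that other cells also express, averaged 2.43 ± 0.770 FPKM in PKP2_het, against 2.47 ± 0.353 in WT (SD, n = 4 each; adjusted p 0.934).

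**Figure D4:**
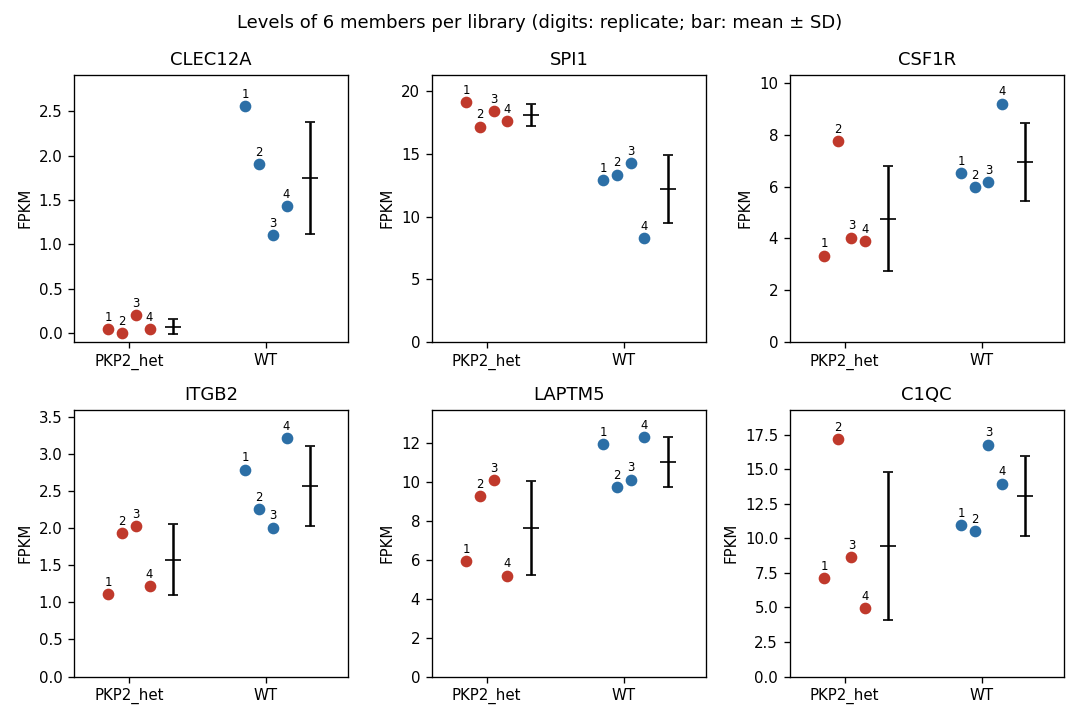
FPKM of CLEC12A, SPI1, CSF1R, ITGB2, LAPTM5 and C1QC in each PKP2_het library (left, red) and WT library (right, blue), numbered by replicate, with mean and SD. CLEC12A and SPI1 separate the groups, while in CSF1R and C1QC the PKP2_het replicate 2 lies among or above the WT libraries.

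The 3 C1q chains moved together from library to library. C1q is the recognition protein of the classical complement pathway, built from the chains encoded by C1QA, C1QB and C1QC, which lie side by side within chr6:80586259-80606076. C1QC had 7.13, 17.2, 8.65 and 4.96 FPKM in PKP2_het and 10.9, 10.5, 16.8 and 14.0 FPKM in WT. C1QB had 6.50, 14.96, 7.76 and 4.86 FPKM in PKP2_het and 9.98, 8.85, 14.6 and 11.5 FPKM in WT. C1QA had 5.31, 9.45, 5.76 and 2.52 FPKM in PKP2_het and 8.05, 6.29, 9.005 and 7.29 FPKM in WT. For each chain, PKP2_het replicate 2 was the highest of all 8 libraries and PKP2_het replicates 1, 3 and 4 were the lowest 3. The ratio of C1QC to C1QB stayed between 1.02 and 1.22 over the 8 libraries, and that of C1QA to C1QB ranged more widely, from 0.518 to 0.817.

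None of the chains passed the test. The log2 fold changes were -0.53 ± 0.30 for C1QC, -0.45 ± 0.28 for C1QA and -0.44 ± 0.28 for C1QB (SE), with adjusted p-values of 0.522, 0.554 and 0.562. Without PKP2_het replicate 2 these log2 fold changes were -0.83, -0.69 and -0.73, and without PKP2_het replicate 4 they were -0.30, -0.17 and -0.24, none of them called. The proteases that C1q activates came out with positive log2 fold changes. C1S had 26.4, 37.1, 16.7 and 18.0 FPKM in PKP2_het and 10.5, 13.7, 16.7 and 16.2 FPKM in WT (log2 fold change 0.69, SE 0.25, adjusted p 0.259). C1R averaged 27.2 ± 8.49 FPKM in PKP2_het, against 21.1 ± 4.97 in WT (SD, n = 4 each; adjusted p 0.593).

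Scavenger and uptake receptors gave 6 tested members, 0 of them called, with 4 negative and 2 positive log2 fold changes and a median of -0.08. CD163, the receptor that takes up haemoglobin bound to haptoglobin, had 1.08, 2.78, 0.992 and 0.966 FPKM in PKP2_het and 1.84, 1.33, 1.51 and 1.83 FPKM in WT. VSIG4, a receptor for complement fragments on resident macrophages, had 0.366, 1.49, 0.615 and 0.423 FPKM in PKP2_het and 0.946, 1.00, 1.04 and 1.06 FPKM in WT. In both genes PKP2_het replicate 2 was above every WT library and the other PKP2_het libraries were below every one. The adjusted p was 0.769 for CD163 and 0.569 for VSIG4. When 1 library was left out in turn, the adjusted p of CD163 lay between 0.178 and 0.912 and that of VSIG4 between 0.0696 and 0.785, both lowest without PKP2_het replicate 2 and highest without WT replicate 4.

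FOLR2, a folate receptor of resident macrophages, had 7.44, 5.50, 4.37 and 4.35 FPKM in PKP2_het and 5.23, 4.99, 5.52 and 4.77 FPKM in WT (adjusted p 0.927). It did not follow the order of CD163: PKP2_het replicate 1 was its highest library. STAB1, a scavenger receptor shared with sinusoidal and lymphatic endothelium, averaged 3.59 ± 1.54 FPKM in PKP2_het, against 3.34 ± 0.464 in WT (SD, n = 4 each; adjusted p 0.971). LYVE1, a hyaluronan receptor shared with lymphatic vessels, averaged 1.31 ± 0.603 FPKM in PKP2_het, against 1.33 ± 0.287 in WT (SD, n = 4 each; adjusted p 0.935). CD68, a lysosomal membrane protein of phagocytes, averaged 2.93 ± 1.17 FPKM in PKP2_het, against 3.12 ± 0.258 in WT (SD, n = 4 each; adjusted p 0.821).

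The remaining scavenger receptors lay below the filter. MRC1, the mannose receptor, had 0.378, 1.17, 0.496 and 0.407 FPKM in PKP2_het and 0.774, 0.871, 0.696 and 0.791 FPKM in WT, the same order of libraries as CD163 in that replicate 2 of PKP2_het was above all WT libraries and the other 3 below. MSR1, a receptor for modified lipoproteins, had 42 fragments in PKP2_het and 70 in WT. TIMD4, a phosphatidylserine receptor of long-lived resident macrophages, had 7 fragments in PKP2_het and 11 in WT. MARCO, a bacterial scavenger receptor, had 2 fragments in PKP2_het replicate 1 and 0 in the other 7 libraries, which allows up to 0.0596 to 0.0883 FPKM in each of those at 3 fragments.

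Among adaptors and signalling proteins, the 4 tested members all had negative log2 fold changes, with a median of -0.23, and 0 were called. LAPTM5, a lysosomal membrane protein of blood-derived cells, had 5.92, 9.26, 10.1 and 5.17 FPKM in PKP2_het and 11.9, 9.71, 10.1 and 12.3 FPKM in WT. PKP2_het replicates 1 and 4 were the low libraries. The LAPTM5 log2 fold change was -0.52 (SE 0.19), with an unadjusted p of 0.0248 and an adjusted p of 0.289. TYROBP, the DAP12 adaptor of activating receptors, averaged 4.17 ± 1.40 FPKM in PKP2_het, against 5.35 ± 0.839 in WT (SD, n = 4 each; adjusted p 0.562). FCER1G, the Fc receptor gamma chain, averaged 4.52 ± 1.99 FPKM in PKP2_het, against 4.98 ± 2.31 in WT (SD, n = 4 each; adjusted p 0.905), with its highest library in WT. AIF1, the actin-binding protein IBA1, averaged 1.47 ± 0.567 FPKM in PKP2_het, against 1.70 ± 0.763 in WT (SD, n = 4 each; adjusted p 0.833). TREM2, a lipid-sensing receptor that signals through TYROBP, was below the filter with 20 fragments in PKP2_het and 18 in WT.

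Of the recruitment and adhesion molecules, only ITGB2 was tested. It encodes the beta-2 integrin chain (CD18) that leukocytes use to adhere to vessels. ITGB2 had 1.11, 1.94, 2.03 and 1.22 FPKM in PKP2_het and 2.79, 2.26, 2.01 and 3.22 FPKM in WT. The groups met only where PKP2_het replicate 3 reached WT replicate 3. The ITGB2 log2 fold change was -0.48 (SE 0.16), with an unadjusted p of 0.0127 and an adjusted p of 0.213. Its alpha-chain partner ITGAM (CD11b) had 0.256, 1.12, 0.628 and 0.190 FPKM in PKP2_het and 0.419, 0.288, 0.501 and 0.529 FPKM in WT, so PKP2_het held its highest and lowest libraries. CCR2, the chemokine receptor of inflammatory monocytes, had 53 fragments in PKP2_het and 73 in WT, and CX3CR1, the fractalkine receptor, had 120 in PKP2_het and 127 in WT.

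The effector proteins gave 3 tested members, all with negative log2 fold changes and 0 called. CTSS, a lysosomal protease of antigen presentation and the most abundant of them, had 5.24, 5.64, 8.85 and 6.22 FPKM in PKP2_het and 10.6, 6.57, 5.33 and 7.04 FPKM in WT (adjusted p 0.776). CYBB, the catalytic subunit of the phagocyte NADPH oxidase, had 0.411, 1.20, 0.378 and 0.451 FPKM in PKP2_het and 1.18, 1.01, 0.638 and 1.42 FPKM in WT, with PKP2_het replicates 1, 3 and 4 below all WT libraries. The CYBB log2 fold change was -0.37 (SE 0.17), with an adjusted p of 0.414. F13A1, the clotting factor XIII A chain that resident macrophages make, averaged 1.30 ± 0.546 FPKM in PKP2_het, against 1.501 ± 0.358 in WT (SD, n = 4 each; adjusted p 0.755).

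MPEG1, the pore-forming protein perforin-2, and CD86, a co-stimulatory ligand for T cells, were below the filter. MPEG1 had 0.479, 1.07, 0.219 and 0.128 FPKM in PKP2_het and 0.700, 0.915, 1.16 and 0.976 FPKM in WT, with replicate 2 again the high PKP2_het library. CD86 had 0.338, 0.787, 1.09 and 0.998 FPKM in PKP2_het and 1.10, 0.680, 0.561 and 1.19 FPKM in WT. Of the 11 members below the filter, 8 had the lower mean in PKP2_het and 3 the higher (ITGAM, TREM2 and MARCO). With the filter lowered to 0.1 FPKM in 4 libraries, 9 of these 11 entered the limma test. Of the 9, 0 were called, against 1.96% of all genes in that test. At an unadjusted p under 0.05 stood 1 of the 9, MPEG1 (adjusted p 0.313), against 13.6% of all genes in that test.

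The PKP2_het libraries differed among themselves in the same way across many members. PKP2_het replicate 2 was the highest of the 8 libraries for 9 of the 23 tested members, against 6.94% of all tested genes. PKP2_het replicate 4 was the lowest for 11 of them, against 6.97% of all tested genes, and PKP2_het replicate 1 for 7, against 14.0%. The level was higher in PKP2_het replicate 2 than in replicate 4 for 20 of the 23 tested members, with a median ratio of 1.99. Replicates 2 and 4 are the high and low extremes of these same members, so this count follows in part from the choice. Its share over all tested genes was not computed. PKP2_het replicate 3, which stood apart over all genes, was the lowest for 2 of the tested members. The standard deviation of log2(FPKM + 1) was larger in PKP2_het than in WT for 19 of the 23 tested members, and for 74.1% of all tested genes.

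Set against the WT mean, the median log2 difference of the tested members was -0.39, 0.16, -0.20 and -0.49 in PKP2_het replicates 1 to 4. With all 8 libraries, 5 of the 23 tested members had an unadjusted p under 0.05. When PKP2_het replicate 2 was left out there were 11, against 12.5% of all tested genes, and the median log2 fold change of the tested members was -0.29. Leaving out any other library gave 3 to 5. PKP2_het replicate 2 was singled out after its high values were seen. Without it CLEC12A was still the only member called, in a fit that called 1.29% of all tested genes; without PKP2_het replicate 3 it was also the only one, while 2.92% of all tested genes were called. Without PKP2_het replicate 4 the median was -0.10, 16 of the 23 were negative and 3 had an unadjusted p under 0.05.

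**Figure D5:**
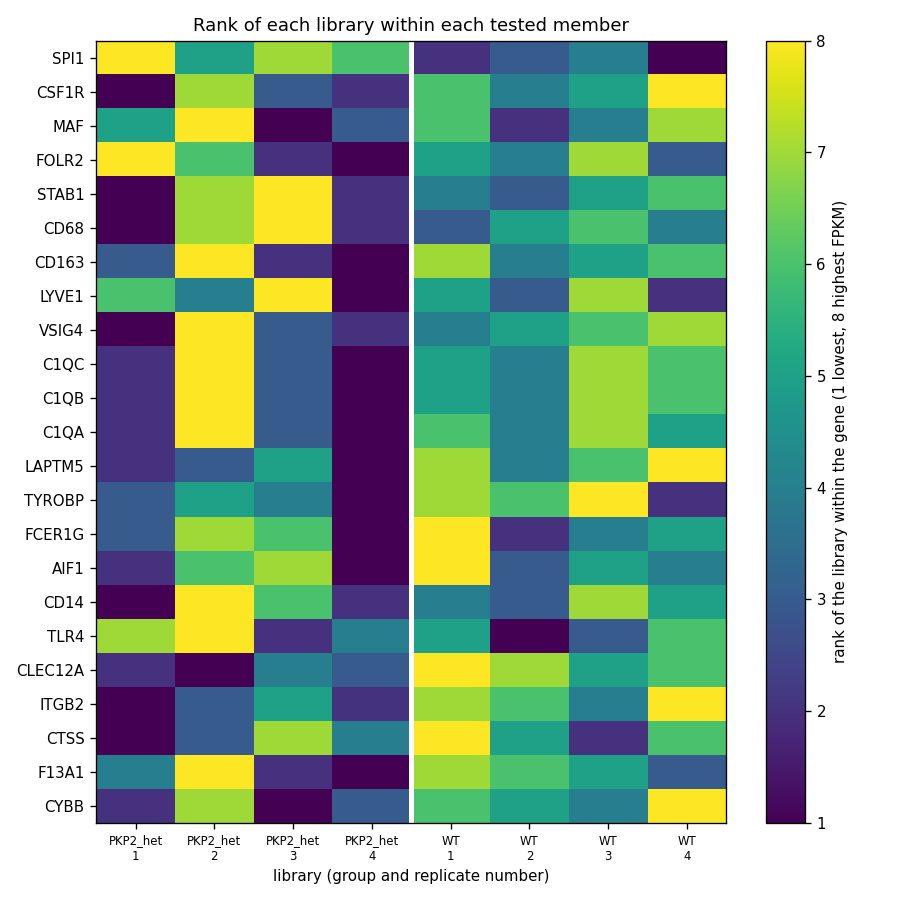
Rank of the 8 libraries within each of the 23 tested members, from 1 (dark, lowest FPKM) to 8 (yellow, highest). PKP2_het replicate 2 holds rank 8 in 9 members and PKP2_het replicate 4 rank 1 in 11, and SPI1 holds its 4 highest ranks in PKP2_het. Over all tested genes, PKP2_het replicate 2 was highest for 6.94% and PKP2_het replicate 4 lowest for 6.97%.

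Ligands, receptors and partner subunits of the members were counted from a list of 40 genes, of which 18 were tested. By limma 0 were called; 6 had an unadjusted p under 0.05, 12 log2 fold changes were negative and 6 positive, and voom called 0. Among all tested genes, 12.8% had an unadjusted p under 0.05 and 54.3% were negative. Groups did not overlap for 3 of the 18 tested partner genes, against 4.86% of all tested genes higher and 4.33% lower without overlap. CSF1, the ligand of CSF1R, had 4.47, 5.89, 4.82 and 5.24 FPKM in PKP2_het and 4.32, 3.47, 4.45 and 3.90 FPKM in WT, with all PKP2_het libraries above all WT libraries and an adjusted p of 0.321. IL34, the other ligand, averaged 1.13 ± 0.375 FPKM in PKP2_het, against 1.45 ± 0.590 in WT (SD, n = 4 each; adjusted p 0.700). SIRPA, an inhibitory receptor of myeloid cells that muscle also expresses, averaged 10.3 ± 2.01 FPKM in PKP2_het, against 13.9 ± 0.995 in WT without overlap (SD, n = 4 each; adjusted p 0.237). CYBA, which pairs with CYBB in the oxidase, averaged 4.73 ± 0.872 FPKM in PKP2_het, against 6.72 ± 1.27 in WT (SD, n = 4 each; adjusted p 0.267). LYN, a Src-family kinase of myeloid signalling, averaged 1.18 ± 0.405 FPKM in PKP2_het, against 1.86 ± 0.349 in WT (SD, n = 4 each; adjusted p 0.260).

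A list of 47 further myeloid and pan-leukocyte genes gave 21 tested genes, 0 called by limma or by voom, 5 with an unadjusted p under 0.05, and 14 negative against 7 positive log2 fold changes, beside the same 12.8% and 54.3% of all tested genes. PTPRC (CD45), carried by all leukocytes, had 0.608, 1.19, 0.735 and 0.624 FPKM in PKP2_het and 1.34, 1.76, 1.23 and 1.69 FPKM in WT. The groups did not overlap, and the PTPRC log2 fold change was -0.49 (SE 0.12), with a limma adjusted p of 0.0986. PTPRC, LCP1, CORO1A and CD9 are named because they had the smallest p of the list. Groups did not overlap for 2 of its 21 tested genes. Among all tested genes, 4.33% were lower and 4.86% higher in PKP2_het without overlap. LCP1, the actin-bundling plastin of leukocytes, averaged 1.18 ± 0.384 FPKM in PKP2_het, against 1.97 ± 0.289 in WT, also without overlap (SD, n = 4 each; adjusted p 0.190). CORO1A, an actin regulator of leukocytes, averaged 1.75 ± 0.675 FPKM in PKP2_het, against 2.90 ± 0.346 in WT (SD, n = 4 each; adjusted p 0.185). CD9, a tetraspanin found on many cell types, lay the other way, at 20.7 ± 3.26 FPKM in PKP2_het, against 15.2 ± 3.10 in WT (SD, n = 4 each; adjusted p 0.309).

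Markers of cells that share some of these genes were measured beside them. T and NK cell markers, of which 2 of 9 were tested and 0 called, summed to 2.24 to 6.72 FPKM in PKP2_het and 5.83 to 6.79 FPKM in WT. Dendritic cell markers, of which 1 of 7 was tested and 0 called, summed to 3.10 to 6.33 FPKM in PKP2_het and 5.22 to 7.81 FPKM in WT. Endothelial markers gave 8 negative log2 fold changes among 9 tested genes, with a median of -0.29 and 0 called. Among all tested genes 54.3% were negative, with a median of -0.02. The part of these cells in the levels of ITGB2, LAPTM5, PTPRC and STAB1 was not tested.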

How the data were processed

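RNA from right ventricular tissue was sequenced as 150 bp read pairs and, per the labels' protocols, aligned with HISAT2 2.0.5. How fragments were counted, on which annotation and with what normalisation is not given in the sources used here. In 1 table the authors deposited FPKM for 30550 genes with coordinates. Of these, 30335 matched RefSeq Sscrofa11.1 by gene ID and had its start and end, and 215 did not match. Multiplying FPKM by gene length gave whole multiples of 1 step per library, within 0.01 fragments for 100% of values, and so the fragments per gene.

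Groups and replicate numbers came from sample titles. Genes of 1 FPKM or more in 4 or more libraries entered limma 3.58.1 (R 4.3.3) on log2(FPKM + 1) with a variance trend and without a replicate term. Tests were two-sided, and p-values were adjusted by the Benjamini-Hochberg method over all tested genes and called under 0.05. The pseudocount of 1 makes fold changes of low genes too small. Intervals and limits from 3 fragments cover counting error only.

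The members and the other lists were chosen with earlier results of these data known. The genes named were all members and the 4 partner and 4 further myeloid genes with the smallest p. CSF1, IL34, C1R, CSF3R, MPO, MMP8, PDPN, CCL21, GPNMB, SIGLEC11 and the genes around CLEC12A and SPI1 were named after their values were seen. Of 164 entries in the other lists, 7 had no match and were not analysed here. Alternatives covered pseudocounts, filters, scalings, weights, robust variances, a replicate term, voom and leaving out each library. When a library was left out, the filter was not made anew.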

Additional observations from a re-analysis of the deposited data

Results flagged for a closer look

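In 72 groups of 4 libraries, 8 (11.1%) held a library whose gap to its nearest neighbour exceeded Dixon's critical share of the group's range. Chance gives about 1 in 20 only for independent, normally spread groups. These groups share the same libraries, so the 11.1% cannot be set against that rate. PKP2_het replicate 2 stood above the rest of its group in 4 of these: CSF1R at 7.77 FPKM against 3.33 to 4.02 in the other PKP2_het libraries, CD163 at 2.78 against 0.966 to 1.08, MRC1 at 1.17 against 0.378 to 0.496, and CYBB at 1.20 against 0.378 to 0.451. MARCO in PKP2_het replicate 1 was at 0.0455 FPKM, on 2 fragments, with the others at 0. Such a group is flagged at any value above 0. In WT, replicate 4 was high for CSF1R at 9.21 FPKM against 5.98 to 6.51 in the other WT libraries and low for TYROBP at 4.09 against 5.75 to 5.79. WT replicate 1 was high for AIF1 at 2.83 FPKM against 1.18 to 1.42.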

How the results depend on the processing

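Under 19 alternatives to the fit, CLEC12A was the 1 member called lower and 0 members were called higher, and the median log2 fold change of the tested members stayed between -0.33 and -0.10. The number of genes called among all tested was 200 in the fit reported, 95 with equal FPKM sums, 659 with library quality weights, and 115 to 314 when 1 library was left out. Scaling to equal sums moved the median log2 fold change of all tested genes to -0.23, relative to which SPI1 at 0.31 there stayed positive. PKP2 was called with library quality weights (log2 fold change -0.57, adjusted p 0.0203) and in none of the other 18 alternatives, with adjusted p-values up to 0.589. With the replicate number as a block, 105 genes were called; same-numbered libraries of both groups deviated together with correlations of -0.39 to 0.20, 2 of the 8 libraries deviated most like their own number, and the numbers were not taken as pairs. The sign of the log2 fold change of STAB1 turned in 5 alternatives, of MAF, FOLR2 and FCER1G in 3, of LYVE1 and AIF1 in 2, and of CD163, CD68, CTSS and F13A1 in 1. The count-model fits and voom with TMM scaling were not run; voom on recovered fragments with the deposited scaling was added after seeing the data. Several members rest on few fragments, which limits the precision of their levels.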

Other observations

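SIGLEC11, a sialic acid-binding receptor of macrophages in human, was not among the listed genes and was noticed after the fit. It averaged 8.43 ± 1.23 FPKM in PKP2_het, against 4.12 ± 0.555 in WT (SD, n = 4 each), 2.05-fold higher in PKP2_het, with no overlap, a log2 fold change of 0.88 (SE 0.12) and an adjusted p of 0.00641 by limma.

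Of 6 lymphatic endothelial markers, 4 were tested, with 3 positive and 1 negative log2 fold changes and a median of 0.09. Only PDPN, the membrane protein podoplanin, was called higher, as were 1.15% of all tested genes. It had 13.2, 11.4, 11.4 and 12.8 FPKM in PKP2_het and 7.09, 5.05, 4.58 and 5.01 FPKM in WT, with a log2 fold change of 1.05 (SE 0.13) and an adjusted p of 0.00374 by limma. The lymphatic chemokine CCL21 averaged 22.6 ± 14.6 FPKM in PKP2_het, against 24.7 ± 4.37 in WT (SD, n = 4 each; adjusted p 0.754).

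GPNMB, a glycoprotein of lipid-laden macrophages and other cells, had 6.06, 0.871, 0.155 and 0.193 FPKM in PKP2_het and 0.298, 0.193, 1.20 and 0.145 FPKM in WT, and was below the expression filter.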
